A study of Mus musculus with 6 samples.

Results

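The colonic ion and water transport genes are 35 genes for exchangers, channels, pumps, aquaporins and their aldosterone-response regulators. They were chosen by gene symbol, with earlier results of these data known. They were divided here by direction of transport into 16 absorptive genes, 10 secretory genes, 3 genes that serve both directions and 6 aquaporins. All 35 had a probe set, among 18194 genes with one on the array, and each was read from the probe set with the highest mean over the 6 arrays. The genes were measured in colon RNA of C57BL/6 mice aged 6 to 8 weeks, taken 24 h after ethanol was given rectally. Mice were wild type (WT), GPR41 knockout (KO) or GPR43 KO, with 2 arrays per group, and the question the design poses is what loss of either receptor for short-chain fatty acids changes in the ethanol-treated colon. Every group received ethanol, so no difference below shows what ethanol itself did, and no colon without ethanol was analysed here. No source used here gives which part of either allele was deleted. Nothing in the labels ties paired arrays to separate animals, so a p-value measures only the spread between these arrays.

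Colonic surface cells take up sodium and chloride by coupling an apical sodium/proton exchanger to an apical chloride/bicarbonate exchanger, and in the distal colon also through the epithelial sodium channel, which aldosterone controls. Crypt and surface cells secrete chloride that enters across the basolateral membrane with sodium and potassium and leaves through apical chloride channels, with basolateral potassium channels holding the driving force. Water follows the salt, partly through aquaporins, so the balance of both directions sets how wet the stool is.

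Before the results, 1 library has to be set apart. Ffar2, the gene for GPR43, had a signal of 1194 and 1118 in WT, 1857 and 1933 in GPR41 KO, and 1598 and 189.0 in GPR43 KO. It was low in GPR43 KO replicate 2 alone, and the second Ffar2 probe set gave 1142 and 76.3 in GPR43 KO against 840.2 and 756.9 in WT. The library labelled GPR43 KO replicate 1 therefore went against its label on both probe sets, and each GPR43 KO result that passed is given with and without it. No probe set carries the symbol Ffar3, the gene for GPR41, so the GPR41 KO labels were not checked. The 6 arrays had median signals of 80.9 to 96.8 after scaling to a common trimmed mean, and of 10916 genes tested 541 differed between GPR41 KO and WT and 432 between GPR43 KO and WT.

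The transport genes that differed from WT were all higher in the knockouts, and none of the 35 fell in the fit of all 6 arrays. In GPR41 KO 8 members rose, namely Atp12a, Aqp8, Trpm6, Slc20a1, Kcnk5, Slc9a2, Slc26a2 and Ano1, where 4.96% of all genes tested passed in either direction, 1.85% as higher and 3.11% as lower. In GPR43 KO 5 members rose, namely Aqp8, Atp12a, Ano1, Trpm6 and Slc26a2, against 3.96% of all genes in either direction, 1.55% as higher and 2.41% as lower. A gene passed where limma's Benjamini-Hochberg adjusted p over all 10916 genes was under 0.05. Folds are on the log2(signal + 18) scale, and errors are the standard error (SE) of the fit. Both comparisons use the same 2 WT arrays, so they are not independent of each other. The members were chosen with earlier results of these data known. Their counts set beside the shares of all genes are therefore a description, not an independent test of the list.

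**Figure D1:**
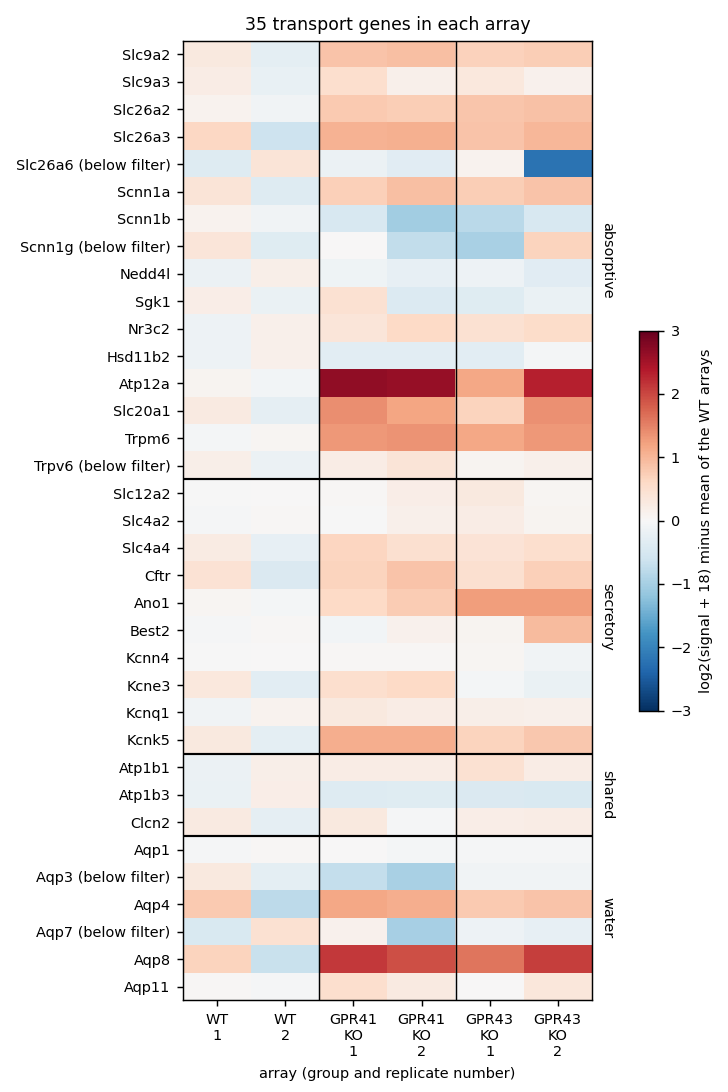
Each row is 1 of the 35 transport genes, ordered by role (absorptive, secretory, shared, water), and each column 1 array; colour gives log2(signal + 18) minus the mean of the WT arrays, red for higher and blue for lower. The strongest red lies in Atp12a and Aqp8, while 5 rows marked below the filter had too weak a signal to be tested.

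The promoter windows of 3 members are shown first: Aqp8 and Trpm6, which rose in both knockouts, and Sgk1, the best-known early aldosterone target of the set, which did not pass in either. Each window is RefSeq sequence of mouse build GRCm38.p6 from 250 bases before to 50 bases after the annotated start, written 5′ to 3′ on the plus strand, on which all 3 genes lie. Aqp8 is at chr7:123462044-123462343, Trpm6 at chr19:18749480-18749779 and Sgk1 at chr10:21993640-21993939. The Sgk1 window is 1 of 6 listed for that gene and is shown because it held the full steroid receptor element. The presence of the element in the window shown was therefore set by that choice. No other member window held it. Capitals mark matches to the motif letters listed after the sequences.
Aqp8: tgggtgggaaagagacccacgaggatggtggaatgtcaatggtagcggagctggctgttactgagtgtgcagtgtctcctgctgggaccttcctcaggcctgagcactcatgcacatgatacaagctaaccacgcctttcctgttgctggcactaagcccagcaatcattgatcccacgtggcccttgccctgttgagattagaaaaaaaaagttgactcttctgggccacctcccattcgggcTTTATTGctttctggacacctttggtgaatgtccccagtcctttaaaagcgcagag
Trpm6: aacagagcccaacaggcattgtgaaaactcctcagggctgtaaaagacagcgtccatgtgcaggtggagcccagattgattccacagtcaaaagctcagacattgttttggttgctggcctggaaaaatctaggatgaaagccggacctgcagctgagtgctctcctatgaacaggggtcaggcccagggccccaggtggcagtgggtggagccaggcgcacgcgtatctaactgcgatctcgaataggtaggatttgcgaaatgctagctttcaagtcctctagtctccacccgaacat
Sgk1: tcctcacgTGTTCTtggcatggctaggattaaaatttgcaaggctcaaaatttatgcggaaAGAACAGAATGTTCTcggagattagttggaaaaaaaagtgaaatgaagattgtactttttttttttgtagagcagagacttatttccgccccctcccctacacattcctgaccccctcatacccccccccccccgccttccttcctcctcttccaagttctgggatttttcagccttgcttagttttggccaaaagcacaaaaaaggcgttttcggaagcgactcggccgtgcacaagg
The Aqp8 window held 1 match to the Cdx letters CAATAAA, read on the opposite strand as TTTATTG, and 4.6% of all 32851 windows held these letters on either strand. In the Sgk1 window shown, the full steroid receptor element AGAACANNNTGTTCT occurred once, starting 189 bases before that window's annotated start, and only 3 of all windows (0.00913%) held it. The hexamer of that element, AGAACA, which reads TGTTCT on the opposite strand, occurred 3 times there, and 2 of the 3 lie inside the full element. This hexamer is common, with a match in 19.0% of all windows and in 8 of the 36 windows of the 25 members that have one. The TATA letters TATAAA lay in 5 of the 36 member windows, none of them shown here, against 13.6% of all windows. The Hnf4a letters CAAAGTCCA matched in 1 member window, that of Trpv6, against 0.475% of all windows. The AP-1 letters TGAGTCA (in 5.2% of all windows) and the vitamin D receptor element GGTTCANNNGGTTCA (in 0.00609%) matched in no member window. Both strands were searched for each of these 7 motifs, and the Trpm6 window held none of them. A match of letters is a description of the sequence, not of a bound site.

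Among the absorptive genes the largest difference was in Atp12a, the alpha subunit of the colonic proton/potassium pump, which recovers potassium from the lumen. Atp12a had a signal of 709.8 and 627.9 in WT, 4319 and 4184 in GPR41 KO, and 1513 and 3407 in GPR43 KO. All 4 knockout arrays lay above both WT arrays, and the library labelled GPR43 KO replicate 1 was the lowest of the 4. Atp12a rose 6.23-fold in GPR41 KO (log2 difference 2.64 ± 0.30, SE, adjusted p = 0.0022) and 3.34-fold in GPR43 KO (1.74 ± 0.30, adjusted p = 0.0173). With the library labelled GPR43 KO replicate 1 left out, the log2 difference in that knockout was 2.32 (adjusted p = 0.00049). It passed in both knockouts whichever array was left out.

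Trpm6, an apical magnesium channel, gave even values within each group. Its signal was 906.4 and 991.4 in WT, 2375 and 2421 in GPR41 KO, and 2136 and 2355 in GPR43 KO. The knockout arrays stood close together and well above WT. Trpm6 rose 2.50-fold in GPR41 KO (1.32 ± 0.13, adjusted p = 0.000917) and 2.34-fold in GPR43 KO (1.23 ± 0.13, adjusted p = 0.00156). It passed in all 6 fits that left out 1 array, with a log2 difference of 1.30 (adjusted p = 0.00823) in GPR43 KO without the library labelled replicate 1. A second, weaker Trpm6 probe set passed in GPR41 KO (1.22, adjusted p = 0.0213 in a fit of every probe set) and not in GPR43 KO (0.72, adjusted p = 0.155).

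Slc26a2, an apical sulfate and anion exchanger, had a signal of 9502 and 8224 in WT, 15266 and 14859 in GPR41 KO, and 15818 and 16237 in GPR43 KO. The groups did not overlap, and the 4 knockout arrays differed little from each other. Slc26a2 rose 1.70-fold in GPR41 KO (0.77 ± 0.12, adjusted p = 0.00927) and 1.81-fold in GPR43 KO (0.86 ± 0.12, adjusted p = 0.00757). Its other 2 probe sets passed in both knockouts too. Leaving out either GPR41 KO array took the adjusted p there to 0.0893 or 0.0682, and the GPR43 KO value became 0.049 when the library labelled replicate 1 was left out and 0.0736 when replicate 2 was.

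Slc26a3, the apical chloride/bicarbonate exchanger whose loss causes chloride-losing diarrhoea, had a signal of 12078 and 5108 in WT. It read 16234 and 16389 in GPR41 KO and 14146 and 15584 in GPR43 KO. Every knockout array was above both WT arrays, but the WT arrays lay far apart. The differences of 1.05 ± 0.32 (95% interval 0.33 to 1.78, adjusted p = 0.11) and 0.92 ± 0.32 (0.19 to 1.64, adjusted p = 0.158) did not pass. Slc26a6, a further apical anion exchanger, was below the filter at 13.3 to 171.9.

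The 2 apical sodium/proton exchangers differed in how clearly they separated. Slc9a2 (NHE2) had a signal of 1479 and 972.7 in WT, 2193 and 2249 in GPR41 KO, and 1962 and 2028 in GPR43 KO. Its WT arrays were both lower than any knockout array, and WT replicate 2 was the lowest. Slc9a2 rose 1.84-fold in GPR41 KO (0.88 ± 0.18, adjusted p = 0.0307), whereas in GPR43 KO the difference of 0.72 ± 0.18 had an adjusted p of 0.0683, and of 0.192 without the library labelled replicate 1. The GPR41 KO call was lost without WT replicate 2 (0.58, adjusted p = 0.089) and without either GPR41 KO array (adjusted p = 0.142 and 0.143). Slc9a3 (NHE3), the main exchanger of sodium uptake, read 3227 and 2375 in WT, 3950 and 3084 in GPR41 KO and 3432 and 3020 in GPR43 KO. These groups overlapped, and the differences of 0.33 ± 0.18 and 0.22 ± 0.18 did not pass (adjusted p = 0.361 and 0.553).

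For the epithelial sodium channel, the knockout arrays lay on opposite sides of WT for the alpha and beta subunits, without a call in a single knockout. Scnn1a, the alpha subunit, had a signal of 911 and 530 in WT, 1160 and 1309 in GPR41 KO, and 1171 and 1270 in GPR43 KO, while Scnn1b, the beta subunit, had 330.4 and 278.7 in WT, 211.8 and 138.7 in GPR41 KO, and 165 and 212.9 in GPR43 KO. All knockout arrays were above WT for the alpha subunit and below WT for the beta subunit. Of all 10916 genes tested, 1870 had every knockout array above both WT arrays and 1664 had every one below. Neither passed in a single knockout: the Scnn1a differences were 0.81 ± 0.23 and 0.79 ± 0.23 (adjusted p = 0.0882 and 0.0978), and those of Scnn1b were -0.76 ± 0.27 and -0.64 ± 0.27 (adjusted p = 0.169 and 0.235). With both knockout groups averaged, Scnn1a was 1.74-fold higher than in WT (0.80 ± 0.20, adjusted p = 0.0469). That call was kept in 1 of 6 fits with an array left out and in 4 of 9 fits with a changed setting. Scnn1g, the gamma subunit, was below the filter at 52.8 to 202.8.

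The genes that carry the aldosterone response did not pass in either knockout. Sgk1, the kinase that keeps the sodium channel at the surface, had 7159 and 5454 in WT, 8629 and 4665 in GPR41 KO, and 4892 and 5439 in GPR43 KO, and differed by 0.02 ± 0.26 and -0.28 ± 0.26 (adjusted p = 0.979 and 0.604). Its 2 GPR41 KO arrays were the highest and the lowest of all 6. Nedd4l, the ubiquitin ligase that removes the channel, differed by -0.18 ± 0.15 in GPR41 KO and -0.24 ± 0.15 in GPR43 KO. Hsd11b2, which shields the mineralocorticoid receptor from glucocorticoids, differed by -0.32 ± 0.14 and -0.19 ± 0.14. The receptor gene itself, Nr3c2, read 643 and 802.2 in WT against 931.3 to 1093 in the knockouts, without overlap, at 0.48 ± 0.16 and 0.50 ± 0.16 (adjusted p = 0.147 and 0.14).

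Slc20a1, a sodium-phosphate cotransporter present in most cells, had a signal of 2326 and 1603 in WT, 5111 and 4415 in GPR41 KO, and 3097 and 4986 in GPR43 KO. Both knockouts lay above WT and overlapped each other, and the library labelled GPR43 KO replicate 1 lay nearest to WT. Slc20a1 rose 2.45-fold in GPR41 KO (1.29 ± 0.24, adjusted p = 0.018) and missed the threshold in GPR43 KO (1.02 ± 0.24, adjusted p = 0.0542), where it passed without that library (1.36, adjusted p = 0.0269). Its second probe set, of low signal, showed 0.37 in each knockout and did not pass, nor did the mean over its 3 probe sets in GPR41 KO. The GPR41 KO call was lost without WT replicate 2 (1.02, adjusted p = 0.0626) and without either GPR41 KO array (adjusted p = 0.126 and 0.0698). Trpv6, an apical calcium channel, was below the filter at 65.9 to 107.3.

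**Figure D2:**
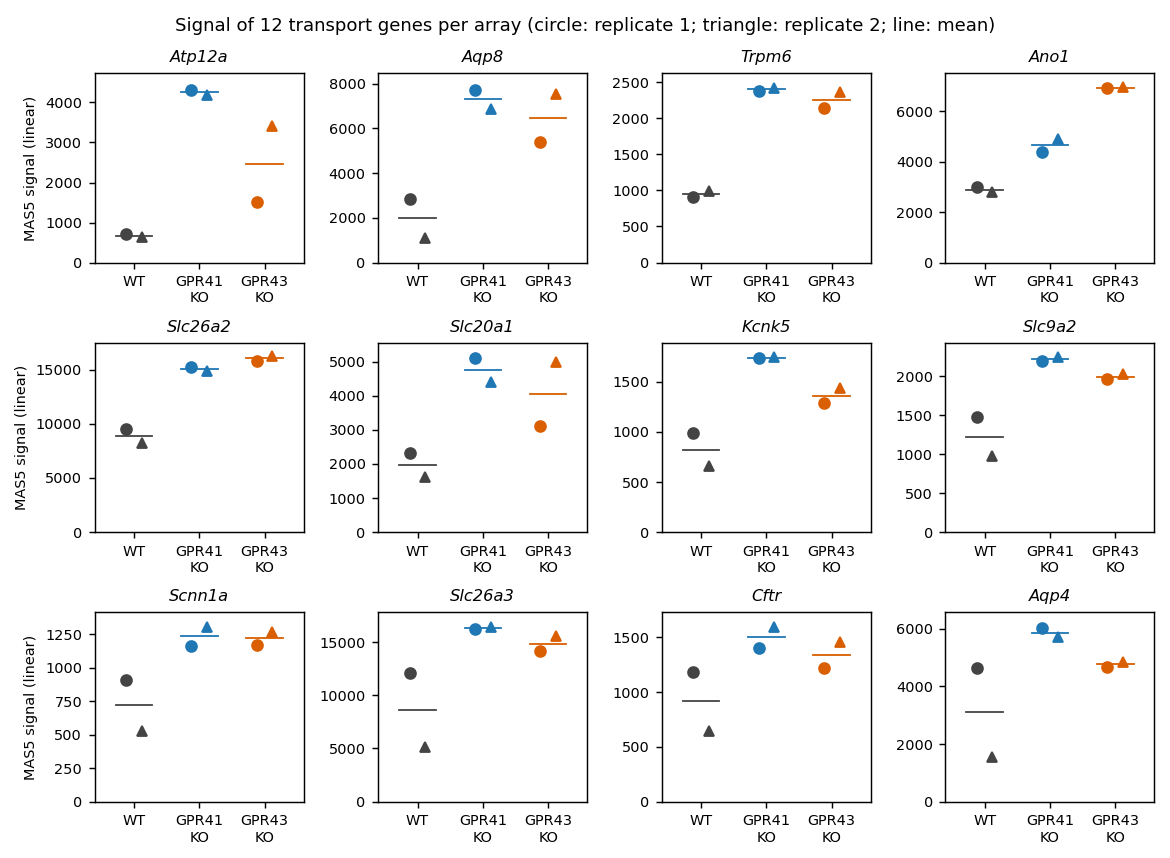
Deposited signal (linear axis from 0) of 12 transport genes in WT, GPR41 KO and GPR43 KO; circles are replicate 1, triangles replicate 2 and lines the mean of the 2 arrays. The knockout arrays of Trpm6 cluster near 2400 while those of Atp12a spread from 1513 to 4319, and the 2 WT arrays lie far apart in Slc26a3 and Aqp4.

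Of the secretory genes, Ano1 rose in both knockouts and Kcnk5 in GPR41 KO. Ano1, a calcium-activated chloride channel of secretory epithelium, smooth muscle and pacemaker cells, had a signal of 2984 and 2792 in WT, 4391 and 4917 in GPR41 KO, and 6933 and 6944 in GPR43 KO. The 3 groups formed 3 separate levels, with GPR43 KO the highest. Ano1 rose 1.61-fold in GPR41 KO (0.68 ± 0.12, adjusted p = 0.0124) and 2.40-fold in GPR43 KO (1.26 ± 0.12, adjusted p = 0.00137), the latter unchanged at 1.26 without the library labelled replicate 1 (adjusted p = 0.00825). In GPR41 KO the call was lost without either of its own arrays (0.76, adjusted p = 0.0538, and 0.60, adjusted p = 0.104). A second Ano1 probe set passed in both, at 553.4 and 544.6 in WT, 1256 and 1254 in GPR41 KO, and 1405 and 1297 in GPR43 KO. On that probe set the log2 differences from WT were 1.17 and 1.27, closer to each other than on the first. Kit, the 1 marker of pacemaker cells with a probe set, read 707.1 and 552.7 in WT, 501.4 and 672.2 in GPR41 KO, and 801.9 and 730.1 in GPR43 KO, and did not pass in either. Among 7 smooth muscle markers Actg2 rose in both knockouts and Smtn in GPR43 KO, with list medians of 0.28 and 0.52, and their part in the Ano1 values was not tested. Neither passed in GPR43 KO once the library labelled replicate 1 was left out (adjusted p = 0.079 for Actg2 and 0.119 for Smtn).

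Kcnk5, a potassium channel of the basolateral membrane, had a signal of 990.9 and 657.5 in WT, 1738 and 1746 in GPR41 KO, and 1289 and 1434 in GPR43 KO. GPR41 KO lay highest and WT lowest, with no overlap between the 3 groups. Kcnk5 rose 2.13-fold in GPR41 KO (1.09 ± 0.19, adjusted p = 0.013), a call lost without either GPR41 KO array (adjusted p = 0.0887 and 0.0814). In GPR43 KO it differed by 0.74 ± 0.19 (adjusted p = 0.0692, and 0.16 without the library labelled replicate 1). The second Kcnk5 probe set did not pass in either, at 1.0 (adjusted p = 0.0608) and 0.39 (adjusted p = 0.464).

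The central genes of chloride secretion did not pass. Cftr, the cAMP-regulated apical chloride channel, had 1183 and 649.1 in WT, 1404 and 1600 in GPR41 KO, and 1222 and 1459 in GPR43 KO, and differed by 0.76 ± 0.25 (adjusted p = 0.134) and 0.60 ± 0.25 (adjusted p = 0.229). WT replicate 2 was again the low array. Slc12a2 (NKCC1), which loads the cell with chloride, read 7279 to 7376 in WT and 7495 to 8950 in the knockouts, at 0.12 ± 0.13 and 0.17 ± 0.13. Slc4a2 and Slc4a4, the basolateral anion exchanger and bicarbonate cotransporter, showed 0.07 ± 0.12 and 0.56 ± 0.19 in GPR41 KO and 0.16 ± 0.12 and 0.45 ± 0.19 in GPR43 KO.

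Among the other potassium channel genes, Kcnn4, the calcium-activated channel, had 2182 to 2440 on every array and differences of 0.04 ± 0.12 (95% interval -0.23 to 0.31) and -0.03 ± 0.12 (-0.30 to 0.24). Kcnq1 showed 0.27 ± 0.13 and 0.16 ± 0.13. Kcne3, its partner subunit in cAMP-driven secretion, read 3345 and 2165 in WT, 3850 and 4107 in GPR41 KO, and 2603 and 2359 in GPR43 KO. GPR41 KO was above WT while both GPR43 KO arrays lay between the WT arrays, and neither difference passed (0.56 ± 0.19, adjusted p = 0.146, and -0.12 ± 0.19, adjusted p = 0.777).

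Best2, a bicarbonate channel of goblet cells, read 858.5 and 910.4 in WT, 835.5 and 964.5 in GPR41 KO, and 936.4 and 1718 in GPR43 KO. Only GPR43 KO replicate 2, the library with low Ffar2, stood apart. The GPR43 KO difference was 0.51 ± 0.25 (adjusted p = 0.294) with both arrays, and 0.94 with that array alone (adjusted p = 0.0489). When the library labelled replicate 1 was left out, 6 members rose in GPR43 KO, where 2.03% of all genes passed (0.522% as higher and 1.51% as lower): Atp12a, Slc20a1, Trpm6, Ano1, Best2 and Slc26a2. Aqp8 then had a log2 difference of 2.07 and an adjusted p of 0.0586.

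Aqp8, the aquaporin of the colonocyte apical surface, was, after Atp12a, the largest difference in GPR41 KO, and in GPR43 KO it was above Atp12a with both arrays (1.83 against 1.74) and below it without the library labelled replicate 1 (2.07 against 2.32). Its signal was 2840 and 1106 in WT, 7725 and 6871 in GPR41 KO, and 5394 and 7516 in GPR43 KO. The lowest knockout array was still well above the higher WT array. Aqp8 rose 4.08-fold in GPR41 KO (2.03 ± 0.36, adjusted p = 0.0145) and 3.56-fold in GPR43 KO (1.83 ± 0.36, adjusted p = 0.0284). The size depends on the WT array used, from 1.35 (adjusted p = 0.00548) with WT replicate 1 alone to 2.70 (adjusted p = 5.78e-05) with WT replicate 2 alone in GPR41 KO, and from 1.16 (adjusted p = 0.016) to 2.51 (adjusted p = 9.78e-05) in GPR43 KO. Leaving out a knockout array ended the call in that knockout (adjusted p = 0.104 and 0.0716 in GPR41 KO, 0.0586 and 0.166 in GPR43 KO), and leaving out a GPR41 KO array also took GPR43 KO to 0.0519 or 0.0511.

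The basolateral aquaporin Aqp4 had WT arrays furthest apart on the log2 scale among the 30 members above the filter, at 4647 and 1556, against 6038 and 5706 in GPR41 KO and 4670 and 4860 in GPR43 KO. WT replicate 1 nearly reached the GPR43 KO arrays, and the differences of 1.12 ± 0.39 and 0.82 ± 0.39 did not pass (adjusted p = 0.157 and 0.287). Aqp1, known from endothelium, was even at 2902 to 3079 on all arrays (-0.02 ± 0.11 and -0.04 ± 0.11). Over 10 endothelial markers the median difference was -0.47 in GPR41 KO and -0.01 in GPR43 KO, with Pecam1 the 1 marker that fell, in GPR41 KO. Aqp11, an intracellular aquaporin, showed 0.39 ± 0.19 and 0.18 ± 0.19. Aqp3 and Aqp7 were below the filter, at 21.0 to 75.4 and 1.59 to 36.0.

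The 3 genes that serve both directions did not pass. Atp1b1, the main beta subunit of the sodium pump, had the strongest signals of its probe set in GPR43 KO replicate 1 (33785) and the weakest in WT replicate 1 (21848), with differences of 0.22 ± 0.16 and 0.33 ± 0.16. Atp1b3, a second beta subunit, read 3670 and 4823 in WT and 3058 to 3275 in the knockouts, all lower, at -0.37 ± 0.14 (adjusted p = 0.198) and -0.44 ± 0.14 (adjusted p = 0.139). Clcn2, a basolateral chloride channel, overlapped between groups (0.13 ± 0.19 and 0.21 ± 0.19).

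**Figure D3:**
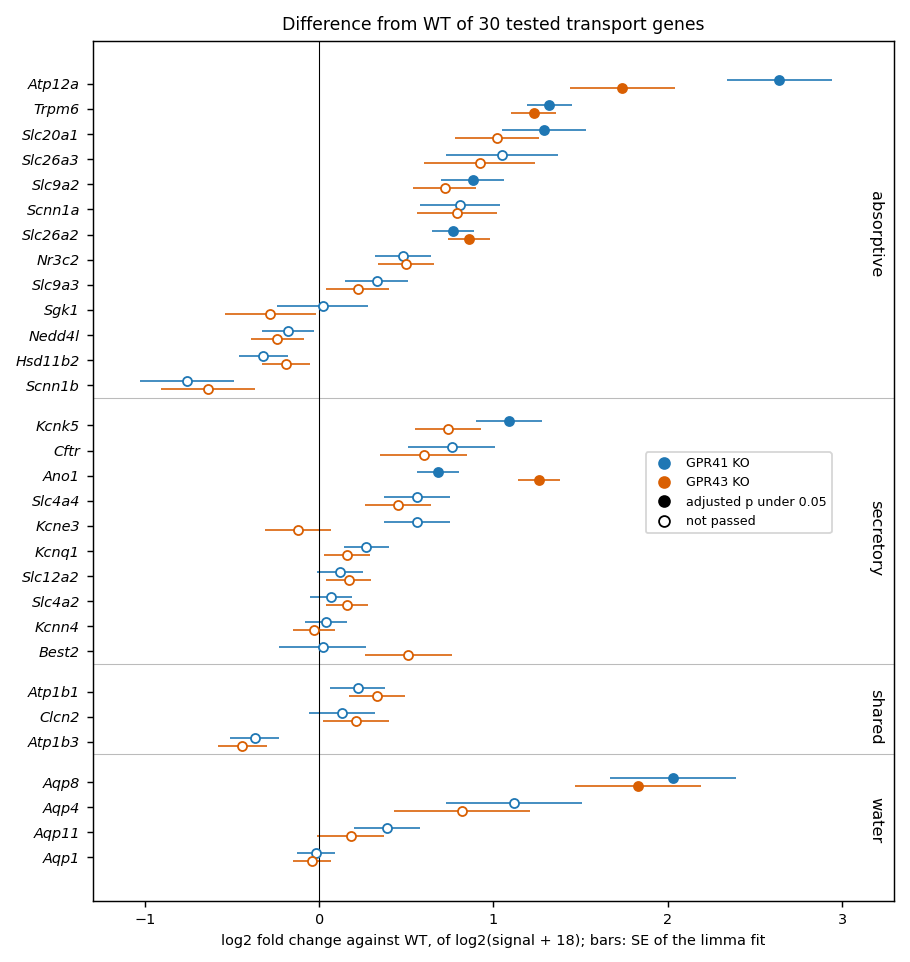
log2 difference from WT (x axis) of the 30 transport genes that passed the signal filter, grouped by role; blue is GPR41 KO, orange GPR43 KO, filled symbols have an adjusted p under 0.05 and bars are 1 SE. The filled symbols all lie right of 0, from 0.68 (Ano1) to 2.64 (Atp12a), and Scnn1b lies furthest left at -0.76.

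Over all 16 absorptive genes, 3 of them below the filter, the median log2 difference was 0.41 in GPR41 KO and 0.36 in GPR43 KO, and over the 10 secretory genes it was 0.41 and 0.31, where all 18194 genes had -0.01 and 0.02. Of the absorptive genes 11 were above 0 in GPR41 KO and 10 in GPR43 KO, with 5 and 3 that rose. Of the secretory genes 10 and 8 were above 0, with 2 and 1 that rose. Over the array 8779 and 9556 of the 18194 genes were above 0, and 1.85% and 1.55% of the genes tested rose. The medians depend on the weak genes: over the 13 absorptive genes above the filter they were 0.77 and 0.72, values that the filter itself can raise, while all 10 secretory genes were above it. The 6 aquaporins had medians of 0.18 and 0.07, and the 4 above the filter had 0.75 and 0.50. No test was made of absorptive against secretory genes, because the members were chosen with results known. By array, the absorptive median was 0.15 and -0.15 in WT, 0.49 and 0.49 in GPR41 KO, and 0.38 and 0.61 in GPR43 KO, so that every knockout array lay above WT. The secretory median was 0.02 and -0.02 in WT, 0.41 and 0.35 in GPR41 KO, and 0.26 and 0.32 in GPR43 KO. With GPR43 KO replicate 2 alone the medians for that knockout are the 0.61 and 0.32 of that array.

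Of the 30 members above the filter, 20 had both GPR41 KO arrays above both WT arrays and 3 had both below, and among all genes tested 24.6% and 25.3% did. In GPR43 KO the counts were 19 above and 4 below, against 27.7% and 22.9%. The arrays of WT were less alike for these genes than those of the knockouts. Between the 2 WT arrays 11 of the 30 differed by more than 0.5 on the log2 scale, all 11 with replicate 1 higher, whereas 14.9% of all genes tested differed by that much. In GPR41 KO 2 members (6.67%) and in GPR43 KO 3 members (10%) differed by that much, against 10.1% and 10.5% of all genes. Without WT replicate 1, 15 members passed in GPR41 KO and 14 in GPR43 KO, where 8.16% and 6.95% of all genes did, and without WT replicate 2 the counts were 6 and 5 (2.76% and 2.2%). Without WT replicate 1, 1 of the members that passed in each knockout was lower than WT, Atp1b3; the other 14 and 13 were higher. Without either GPR41 KO array 2 members passed in that knockout, Atp12a and Trpm6 (1.79% and 2.39% of all genes), and without GPR43 KO replicate 2 there were 3 in GPR43 KO, Atp12a, Trpm6 and Ano1 (1.18%). Where a group kept 1 array, that array was assumed to vary like the other groups. Without the intensity trend in the estimate of spread, the calls of Aqp8, Slc9a2, Slc20a1 and Ano1 in GPR41 KO and of Aqp8 and Atp12a in GPR43 KO were lost.

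**Figure D4:**
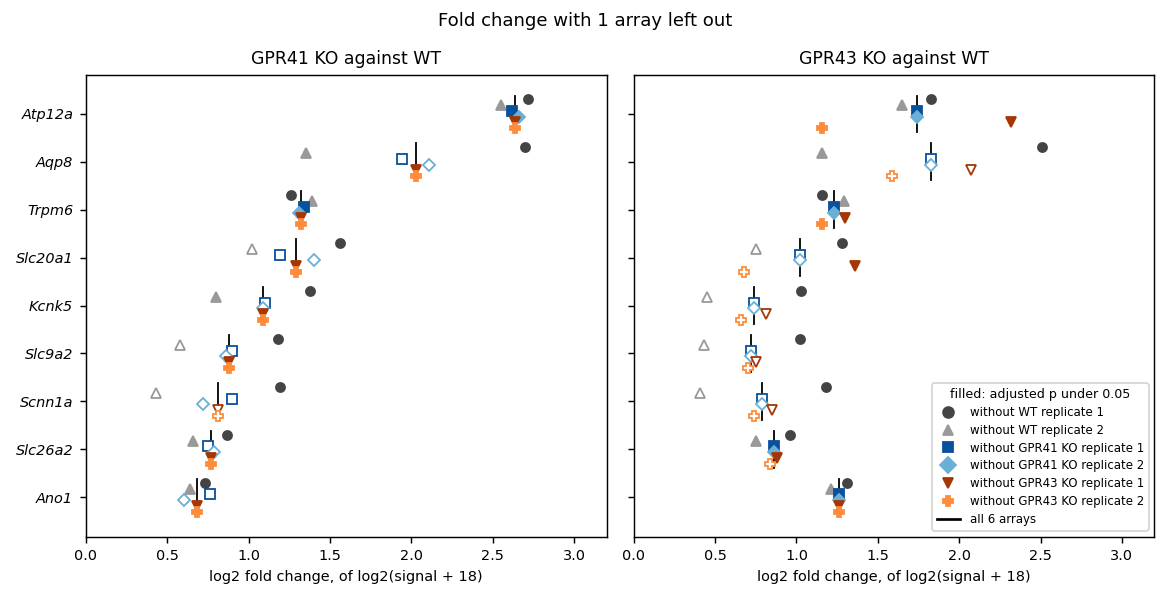
log2 difference from WT (x axis) of 9 transport genes when each of the 6 arrays is left out in turn, for GPR41 KO (left) and GPR43 KO (right); the vertical line is the value with all 6 arrays and filled symbols have an adjusted p under 0.05. Trpm6 and Atp12a stay filled throughout, while the Aqp8 value moves between 1.35 and 2.70 in GPR41 KO with the WT array kept.

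With both knockout groups averaged against WT, 9 members passed, where 6.99% of all genes did (3.2% as higher and 3.79% as lower): the 8 of GPR41 KO and Scnn1a. The largest were Atp12a (4.56-fold, 2.19 ± 0.26, adjusted p = 0.00203) and Aqp8 (3.81-fold, 1.93 ± 0.31, adjusted p = 0.00789). This count was 15 without WT replicate 1 (9.22% of all genes) and 5 without WT replicate 2 (3.26%).

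Between the 2 knockouts no member passed, and neither did any of the 10916 genes (0%). At an unadjusted p under 0.05 limma gave 3 members and 596 genes. Ano1 was 0.58 ± 0.12 higher in GPR43 KO than in GPR41 KO (95% interval 0.31 to 0.84, adjusted p = 0.668). On the second Ano1 probe set the knockouts lay closer, at 1256 and 1254 in GPR41 KO and 1405 and 1297 in GPR43 KO. Kcne3 had a difference of -0.68 ± 0.19 (-1.11 to -0.25, adjusted p = 0.87) and Atp12a of -0.90 ± 0.30 (-1.59 to -0.21, adjusted p = 0.87). For these 3 genes the arrays of the knockouts did not overlap. Over the 30 members above the filter, 2 had both GPR43 KO arrays above both GPR41 KO arrays and 9 had both below, where 23.1% and 14.8% of all genes did. Without the library labelled GPR43 KO replicate 1, Ano1 stayed at 0.58, Kcne3 was at -0.75 and Atp12a at -0.32, each with an adjusted p of 0.999. A missed threshold does not show that the knockouts are alike, and the intervals leave room for differences in either direction for most members.

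Transport genes outside the 35 were listed by family, 110 in all, of which 101 had a probe set and 68 passed the filter. Of these, 2 rose and 5 fell in GPR41 KO, and 3 rose and 4 fell in GPR43 KO. Of all genes tested 1.85% rose and 3.11% fell in GPR41 KO, and 1.55% and 2.41% in GPR43 KO. Clca4a, of a family of secreted proteins that modulate chloride channels, had 6019 and 4865 in WT, 22301 and 12315 in GPR41 KO, and 13627 and 14272 in GPR43 KO. It rose 3.06-fold (1.61 ± 0.24, adjusted p = 0.0071) and 2.57-fold (1.36 ± 0.24, adjusted p = 0.0194), the latter lost without the library labelled replicate 1 (adjusted p = 0.0764). Its relative Clca4b went the other way, from 1058 and 1138 in WT to 215.6 and 203.9 in GPR41 KO and 231.7 and 400.9 in GPR43 KO. Clca4b fell by 2.29 ± 0.25 (adjusted p = 0.00173) and by 1.79 ± 0.25 (adjusted p = 0.00664) on the log2 scale. Whether probe sets of these related genes share signal was not tested. Atp2b1, the basolateral calcium pump, rose 1.66-fold (0.73 ± 0.13, adjusted p = 0.0129) and 1.55-fold (0.63 ± 0.13, adjusted p = 0.03; 0.169 without the library labelled replicate 1). The GPR43 KO calls of Clca4a and Atp2b1 were kept in 3 and 1 of 6 fits with an array left out. Adcy6, an adenylyl cyclase, rose in GPR43 KO at 3106 and 3235 against 2305 and 2038 in WT (0.54 ± 0.12, adjusted p = 0.0425, and 0.141 without that library; kept in 1 of 6 such fits), where GPR41 KO had 2293 and 2282.

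Kcne4, an accessory potassium channel subunit, had the largest decrease among these genes, from 1090 and 2544 in WT to 192 and 214.1 in GPR41 KO and 474.5 and 235.2 in GPR43 KO. On the log2 scale Kcne4 fell by 2.93 ± 0.40 (adjusted p = 0.00451) and by 2.25 ± 0.40 (adjusted p = 0.0193). Kcnj8, a pore subunit of ATP-sensitive potassium channels in vascular muscle and pericytes, fell by 1.60 ± 0.29 and by 1.59 ± 0.29 (adjusted p = 0.0169 and 0.0221). Fxyd5, a regulator of the sodium pump, fell by 1.83 ± 0.22 and by 1.45 ± 0.22 (adjusted p = 0.00284 and 0.00976). Hsd11b1, which activates glucocorticoids, fell by 1.13 ± 0.26 in GPR41 KO (adjusted p = 0.0448), while the GPR43 KO difference of -0.60 ± 0.26 did not pass (adjusted p = 0.243). The Hsd11b1 call was kept in 1 of 6 fits with an array left out, and without WT replicate 2 the difference was -0.68 (adjusted p = 0.143). With GPR43 KO replicate 2 alone, that knockout's differences were -1.41 for Clca4b, -2.73 for Kcne4, -1.89 for Kcnj8 and -1.48 for Fxyd5. With GPR43 KO replicate 1 alone they were -2.16, -1.77, -1.29 and -1.42. Without WT replicate 2 they were -1.73, -1.65, -1.13 and -1.10, so the size of the Kcne4 and Kcnj8 decreases depends on the arrays kept. For Kcne4, Kcnj8, Fxyd5 and Hsd11b1 WT replicate 2 was the highest array, at 2544, 3055, 2646 and 1279.

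In bulk colon RNA, fewer cells of a type and less RNA per cell cannot be told apart, so marker genes are given beside the transport genes. Epithelium was present on every array. Over 9 epithelial markers the summed signal was 154293 and 180306 in WT and 188572 to 215721 in the knockouts, with median log2 differences of 0.23 and 0.33. In either knockout 0 of 9 passed, where 4.96% and 3.96% of all genes tested did. At an unadjusted limma p under 0.05 there were 2 and 4 of 9, against 2132 and 2181 of all 10916 genes. A count of 0 of 9 does not show that epithelial content was equal. Over 8 surface colonocyte markers the sum was 150611 and 172535 in WT and 201928 to 242094 in the knockouts, with a median difference of 0.43 in each. Vil1 alone of these 8 passed, as higher in GPR41 KO. At an unadjusted limma p under 0.05 there were 4 of the 8 in GPR41 KO and 6 in GPR43 KO, against 2132 and 2181 of all 10916 genes. In each knockout 7 of the 8 were above 0. Of 6 goblet cell markers Agr2 rose in both knockouts and Spink4 in GPR43 KO, with medians of 0.43 and 0.63. All 6 were above 0 in each knockout, and 2 and 5 had an unadjusted limma p under 0.05. Neither Agr2 nor Spink4 passed in GPR43 KO once the library labelled replicate 1 was left out, at 0.62 and 0.89. Beside these, the median differences in GPR41 KO and GPR43 KO were 0.41 and 0.36 over the absorptive genes. Over the secretory genes they were 0.41 and 0.31. Single genes spread around these medians, as members of any list do. Aqp8, Atp12a and Trpm6 differed by 1.23 or more in both knockouts. In GPR43 KO the goblet cell markers Fcgbp and Spink4 differed by 1.09 and 1.05, and Fcgbp did not pass. The part of these markers in the transport differences was not tested.

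Neutrophil markers moved most. Of 12 listed, 10 had a probe set, 9 were tested and all 9 fell in both knockouts, also without the library labelled GPR43 KO replicate 1, with a summed signal of 77085 and 139089 in WT, 1276 and 988.3 in GPR41 KO, and 3336 and 1248 in GPR43 KO. None of the 10 was listed at 0 on any array. WT replicate 2, with the higher neutrophil sum, was also the array in which 11 transport genes were lower than in replicate 1 by more than 0.5 on the log2 scale. The part of the neutrophil markers in the transport differences was not tested. The Hox genes that mark the proximal and distal colon did not pass in either knockout (0 of 2 and 0 of 5 tested, none at an unadjusted limma p under 0.05). Of all 10916 genes tested 4.96% passed in GPR41 KO and 3.96% in GPR43 KO, and 2132 and 2181 had an unadjusted p under 0.05. With so few Hox genes, these counts cannot tell whether colon region matched between the groups. Over the 6 distal genes with a probe set the medians were 0.29 in GPR41 KO and 0.37 in GPR43 KO, with 6 and 4 above 0. Over the 4 proximal genes the medians were 0.08 and -0.15. The part of colon region in the transport differences was not tested.

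**Figure D5:**
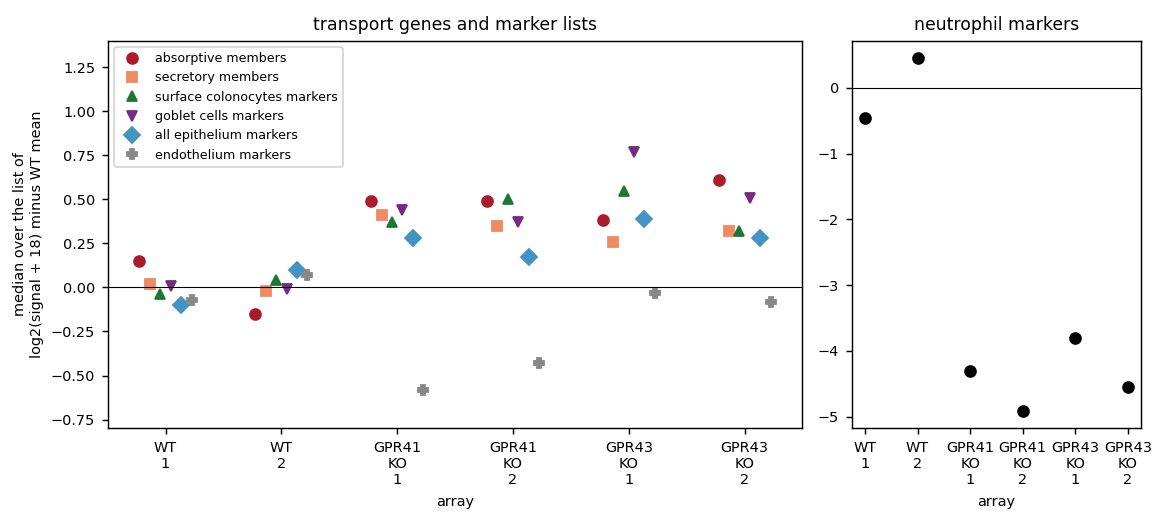
Median over each gene list of log2(signal + 18) minus the WT mean (y axis) for each array (x axis); the left panel shows absorptive and secretory transport genes with 4 marker lists, and the right panel, on its own scale, neutrophil markers. The surface colonocyte markers (0.32 to 0.55 in the knockout arrays) overlap the range of the absorptive genes (0.38 to 0.61), while neutrophil markers lie at -3.8 or lower in every knockout array.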

How the data were processed

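The values are Affymetrix microarray intensities that the authors deposited as 1 linear signal per probe set and array. They were made with MAS5 (no version stated) per the submitters' processing notes, from 2 µg of total RNA per the labels. Of 45101 probe sets, 34958 had 1 gene symbol, 932 several and 9211 none, and only the first kind was used. Per gene the probe set with the highest mean was kept, giving 18194 genes. Signals were turned into log2(signal + 18), and genes with a mean above the 40th percentile (7.17) were tested, 10916 in all, including 30 of the 35 transport genes. limma 3.58.1 (R 4.3.3) was fitted to all 6 arrays with 1 mean per group, eBayes with an intensity trend and Benjamini-Hochberg adjustment over all genes tested, two-sided. An exact permutation of 2 against 2 arrays cannot go below p = 0.333, and the number of arrays limits the precision. The fits were tested on simulated data. All 35 members could be named, and of the other pathway genes and markers those that passed, up to 4 per list by smallest p. Other pseudocounts, filters, scalings, probe set rules, a replicate block, eBayes without the trend and leaving out each array were tried as alternatives. Members and lists were chosen with earlier results of these data known. Promoter windows came from RefSeq (GRCm38.p6). Atp12a and Slc26a2 had no window there. Motifs were matched letter by letter, with Python 3.11.15.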

Additional observations from a re-analysis of the deposited data

How the results depend on the processing

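Of 15 alternatives, 9 changed a setting and 6 left out 1 array. Members called numbered 8 in GPR41 KO, 4 without the trend and 2 to 15 with an array left out; 5 in GPR43 KO, 3 without the trend and 3 to 14 with an array left out; and 9 with both knockouts averaged, 5 to 15 with an array left out. Between the knockouts 0 passed throughout. Same-numbered arrays deviated from their group means with correlations of 0.107, -0.271 and -0.054 between groups. With 2 arrays per group, these values cannot decide whether replicate numbers pair the arrays. With the replicate block the counts were 7, 5, 0 and 8. The secretory median in GPR41 KO was 0.51 under median centring, 0.24 as a mean over all probe sets and 0.28 to 0.44 with an array left out. In GPR43 KO it was 0.16 as a mean over all probe sets and 0.20 to 0.33 with an array left out. The absorptive median ran from 0.28 to 0.52 in GPR41 KO and from 0.15 to 0.61 in GPR43 KO with an array left out. Median centring moved the higher share of all genes called in GPR41 KO from 37.3% to 48.3%, and 11 members then passed there, with Slc26a3, Scnn1a and Cftr added. Signs turned only in members that did not pass. With the mean over all probe sets Slc9a3 was at -0.01 and -0.03 in the 2 knockouts and Aqp11 at -0.11 in GPR43 KO. In GPR41 KO, Sgk1 was at -0.02 with quantile normalization and Aqp1 at 0.07 with median centring. With an array left out, Slc9a3 reached -0.003, Slc4a2 -0.01, Kcnn4 0.05 and Aqp1 0.01, while Sgk1 ran from -0.42 to 0.46, Best2 from -0.08 to 0.12 and Clcn2 from -0.13 to 0.40 in GPR41 KO, and Kcne3 from -0.43 to 0.19 and Clcn2 from -0.06 to 0.48 in GPR43 KO. The cause was not tested. With 2 arrays per group, 1 library with Ffar2 against its label and 5 members too weak to test, no member with a fold under 1.61 passed in a single knockout over all 6 arrays.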
